A study of Mus musculus with 6 samples.

Results

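The genes described here encode the machinery of N-glycosylation, from the assembly of the dolichol-linked sugar through its transfer to protein to trimming and branching in the Golgi. They were chosen by function, as a fixed list of 45 symbols, with earlier results of these data known. Every probe on the array that carries any of those symbols was taken. All 45 genes were found, on 59 probes, among 25777 genes and unnamed transcripts tested. The cells were MIN6B1, a mouse insulinoma line that secretes insulin and is widely used in place of primary beta cells. One group of 3 samples received a small interfering RNA (siRNA) that targets circHIPK3, which is a circular transcript of the Hipk3 gene, and the control group of 3 received an siRNA against green fluorescent protein (siGFP). Both groups were transfected with RNAiMax, a lipid reagent, and kept for 48 h in the same DMEM medium with fetal calf serum, penicillin, streptomycin and β-mercaptoethanol. A single cell line limits what the comparison represents, and the labels do not say whether replicates were separate cultures, so each p-value reflects no more than the spread among these samples, and that spread may be technical.

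N-glycosylation begins on the membrane of the endoplasmic reticulum (ER), where a sugar tree of N-acetylglucosamine (GlcNAc), mannose and glucose is built step by step on the lipid dolichol. The oligosaccharyltransferase complex moves the finished tree onto asparagines of proteins entering the ER, glucosidases and mannosidases then trim it while the protein folds, and Golgi enzymes trim it further and add branches, galactose, fucose and sialic acid. In beta cells this route handles receptors, transporters such as GLUT2 and enzymes of the secretory granule, and in mouse the branch made by Mgat4a is known to hold GLUT2 at the cell surface.

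There was 1 single-colour array per sample. Values below are log2 signals relative to the 75th percentile of the same array, so that 0 is the level of that percentile. Changes are circHIPK3 siRNA minus siGFP on that log2 scale, with a standard error (SE) from limma, whose two-sided p-values are given after Benjamini-Hochberg adjustment over all 25777 genes, with a threshold of 0.05. The 75th percentile lay between 2939 and 3669 intensity units, 77.7% to 83.5% of probes were well above background, and the number of arrays limits the precision. All 3 siGFP arrays and circHIPK3 siRNA replicate 1 had the same scan date in the file headers, and circHIPK3 siRNA replicates 2 and 3 had another. Arrays that share a scan date are called a slide below, and no slide identifier was used. The brighter of the Hipk3 probes changed by -0.17 ± 0.14 (SE, adjusted p = 0.505 over all kept probes), and it does not check the labels, since its place relative to the circularised exon was not determined. All 10 beta cell markers examined were well above background on all 6 arrays. Slc2a2, the GLUT2 gene, lay at a mean of -3.80 on siGFP and -4.93 on circHIPK3 siRNA arrays, a change of -1.14 ± 0.22 (SE) that did not pass (limma adjusted p = 0.0583). The other beta cell markers changed in both directions, from -0.33 for Slc30a8 to 0.12 for G6pc2, and none of them passed. The summed signal of 4 markers of other islet cells, in multiples of the 75th percentile and mostly from Gcg, was 16.1 to 29.8 on siGFP arrays and 10.95 to 20.5 on circHIPK3 siRNA arrays. Gcg changed by -0.59, while Sst, Ppy and Ghrl changed by 0.30, 0.52 and 0.23, and none of the 4 passed. For acinar, fibroblast and macrophage markers, of which 3 of 4, 3 of 4 and 2 of 2 were well above background, no array's sum exceeded 0.336. The part of cell makeup in the results was not tested, and in bulk RNA fewer cells of a type and less RNA per cell cannot be told apart.

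After circHIPK3 siRNA, 2 of the 45 genes fell and none rose. Dpagt1, whose enzyme opens the pathway, fell 1.99-fold, and B4galt3, whose enzyme adds galactose near its end, fell 1.66-fold. The other 43 did not pass the test, with changes from -0.46 for Stt3b to 0.42 for Mgat4a. The count of 2 was 0 with slide as a fixed block, 0 with the replicate block, 0 with no filter on dim probes and 0 in 5 of the 6 fits that left out an array, and 1 with slide as a random block. In each fit where it was 0, the count of lower calls over all genes was 0 as well. Only 1 treated array shared a scan date with the controls, so scan date and group are largely confounded. Over all genes, 0.640% were called lower and 0.535% higher. Of the 12889 genes whose signal was at least the median, 1.00% were called lower, and 40 of the 45 members, including both called ones, were among these genes. The groups did not overlap for 9 members that were lower after circHIPK3 siRNA, 20% of the list. That share was 9.38% over all genes and 14.1% over the 6444 genes with the highest signal. Groups did not overlap for 2 members that were higher, where the share over all genes was 16.6%. At an unadjusted p under 0.05, 7 members were lower and 0 higher, 15.6% of the list. The shares over all genes were 6.51% lower and 14.6% higher, or 21.1% in either direction, and 8.97% lower among genes whose signal was at least the median.

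The median change of the 45 genes was -0.03, against 0.08 for all genes tested. Scaling by array medians instead of 75th percentiles shifts the change of every gene by -0.10, which turns positive changes smaller than that negative, so medians of gene groups are also given after subtraction of the all-gene median, on which basis the list lay at -0.12. By array, the median member lay at -0.07, -0.17 and -0.12 for circHIPK3 siRNA replicates 1 to 3 relative to all genes, and at -0.02, -0.03 and 0.04 for siGFP. Replicate 1 of circHIPK3 siRNA, the array with the scan date of the siGFP arrays, was the nearest to them. No test was made of this list median. Medians relative to all genes, here and below, are not matched for signal. From the highest to the lowest of 4 signal ranges, the all-gene median change was -0.01, 0.02, 0.15 and 0.28. The 27, 13, 3 and 2 members in these ranges had medians of -0.07, -0.04, -0.03 and 0.32. The list value of -0.12 is therefore not an offset from genes of similar signal.

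**Figure D1:**
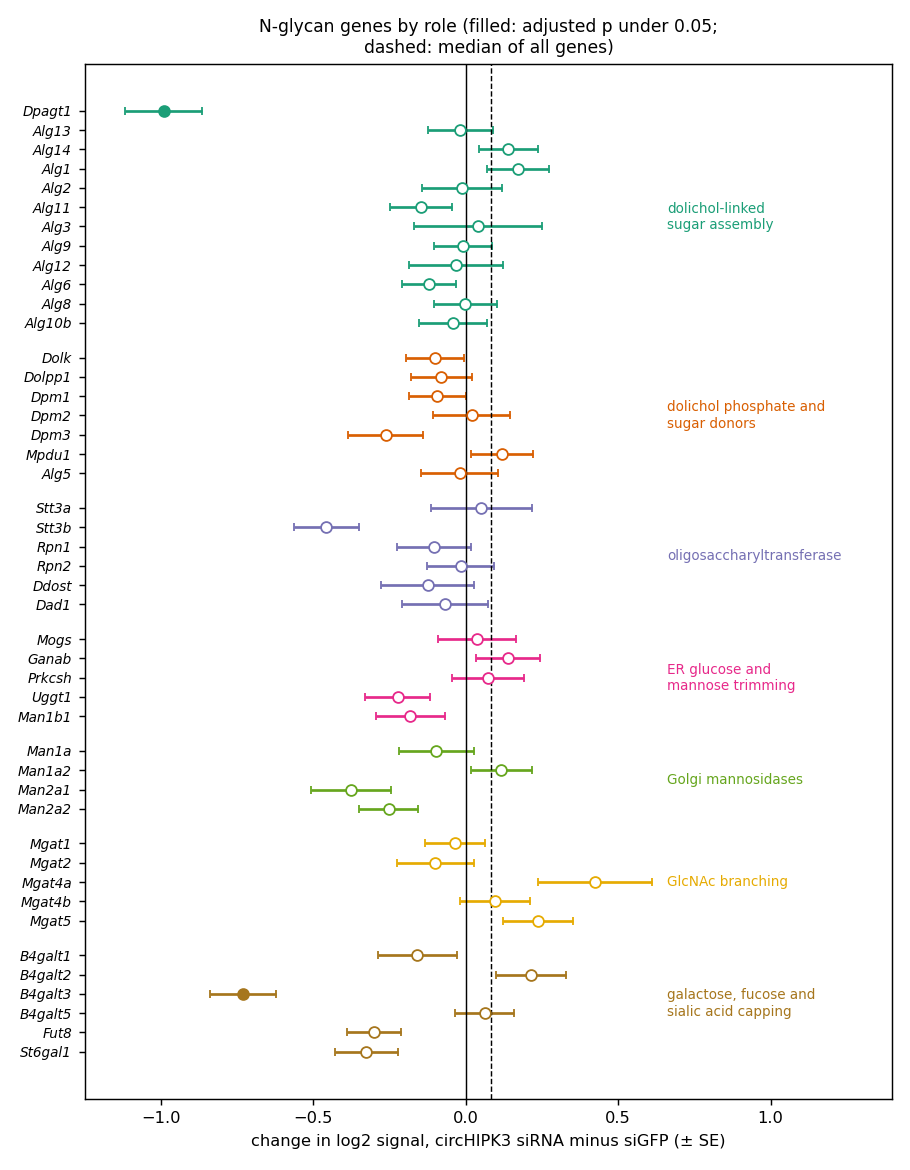
Change in log2 signal (circHIPK3 siRNA minus siGFP, x axis) of the 45 N-glycan genes, ordered by role along the y axis, with bars for the SE of the limma fit (3 arrays a group). Filled points are Dpagt1 at -0.99 and B4galt3 at -0.73, the only members past the threshold, and the dashed line marks the median of all genes at 0.08.

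The assembly of the dolichol-linked sugar starts with Dpagt1, which places a GlcNAc phosphate on dolichol phosphate and is the enzyme that tunicamycin blocks. Its log2 signal was 1.64, 1.25 and 1.56 on siGFP arrays 1 to 3 and 0.44, 0.47 and 0.56 on circHIPK3 siRNA arrays 1 to 3. Every circHIPK3 siRNA array lay below every siGFP array, and the 3 treated arrays were close together. The siGFP mean was 1.48 ± 0.21 (SD, n = 3) and the circHIPK3 siRNA mean 0.49 ± 0.06 (SD, n = 3), which makes a change of -0.99 ± 0.13 (SE, limma adjusted p = 0.0306). An exact two-sided permutation test of its 6 values gave p = 0.1, the smallest that 3 against 3 arrays allow and the value for each member whose groups did not overlap. With slide as a block, so that only circHIPK3 siRNA replicate 1 is compared with its slide's siGFP arrays, the change was -1.04 ± 0.18 (SE) and the call was lost (limma adjusted p = 0.152). The call was also lost without siGFP replicate 1, 2 or 3 and without circHIPK3 siRNA replicate 2 or 3, where the change lay between -1.11 and -0.91 and the adjusted p between 0.0787 and 0.159. Dpagt1 has 1 probe on the array.

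The other 11 assembly enzymes did not pass the test, and their changes lay between -0.15 and 0.17. Alg13 and Alg14, which together add the next GlcNAc to the product of Dpagt1, changed by -0.02 ± 0.11 and 0.14 ± 0.10 (SE). Within each array, Dpagt1 relative to Alg13 differed between the groups by -0.97 ± 0.19 (SE of 3 against 3 arrays), and relative to Alg14 by -1.13 ± 0.18, with no overlap of the groups in either case. These pairs were compared with the values known, so the differences are given without a test. Alg1, which adds the first mannose, had values of 0.93, 0.79 and 0.91 on siGFP arrays and 1.15, 0.94 and 1.05 on circHIPK3 siRNA arrays. It was the only assembly gene with every treated array above every control array, by a change of 0.17 ± 0.10 (SE, limma adjusted p = 0.355), or 0.07 under array median scaling and 0.27 ± 0.14 (SE) with slide as a block. Alg2, which adds the following mannoses, gave 3.66, 3.50 and 3.61 against 3.81, 3.55 and 3.38, and its groups overlapped. Among the enzymes that complete the tree inside the ER, the mannosyltransferase genes Alg3, Alg9 and Alg12 changed by 0.04 ± 0.21, -0.01 ± 0.09 and -0.03 ± 0.15 (SE). Of the glucosyltransferase genes, Alg6 lay at 1.60, 1.63 and 1.62 on siGFP arrays and at 1.46, 1.47 and 1.56 on circHIPK3 siRNA arrays. Its groups did not overlap, but the change of -0.12 ± 0.09 (SE) did not pass (limma adjusted p = 0.453).

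None of the 7 genes that supply dolichol phosphate and its activated sugars passed, with changes from -0.26 to 0.12. Dpm3, which anchors the synthase of dolichol phosphate mannose in the membrane, gave 3.45, 3.21 and 3.54 on siGFP arrays and 3.27, 3.10 and 3.05 on circHIPK3 siRNA arrays. The lowest siGFP value lay below the highest treated value, and the change was -0.26 ± 0.12 (SE, limma adjusted p = 0.269). With slide as a block the change of Dpm3 was -0.13 ± 0.17 (SE). The catalytic subunit gene Dpm1 and the regulatory subunit gene Dpm2 changed by -0.09 ± 0.09 and 0.02 ± 0.13 (SE), and the dolichol kinase gene Dolk by -0.10 ± 0.09 (SE). Groups overlapped for all 7.

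In the oligosaccharyltransferase, none of the 6 members passed, and the catalytic subunits Stt3a and Stt3b, of which Stt3a acts mainly as proteins enter the ER and Stt3b on sites that were skipped, had different values. Stt3b lay at 2.30, 2.42 and 2.28 on siGFP arrays and at 1.75, 1.99 and 1.89 on circHIPK3 siRNA arrays. All treated arrays were below all controls, and the change of -0.46 ± 0.11 (SE) missed the threshold (limma adjusted p = 0.0832, and 0.0312 with trend and robust variance, within a range of 0.0312 to 0.234 over the alternatives). Its second probe gave 0.74, 0.74 and 0.70 against 0.34, 0.48 and 0.77, so that circHIPK3 siRNA replicate 3 lay above the siGFP arrays there, and its change was -0.20 ± 0.13 (SE). Stt3a lay at 2.87, 2.74 and 2.79 against 2.82, 2.55 and 3.20, with the treated arrays on both sides of the controls and a change of 0.05 ± 0.17 (SE). The change of Stt3b minus that of Stt3a, taken within arrays, was -0.51 ± 0.23 (SE), with a 95% interval of -1.16 to 0.14 and overlapping groups. The 4 non-catalytic members Rpn1, Rpn2, Ddost and Dad1 had changes from -0.12 to -0.02. Rpn2, whose signal was 5.34, 5.21 and 5.42 against 5.19, 5.30 and 5.43, changed by -0.02 ± 0.11 (SE).

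**Figure D2:**
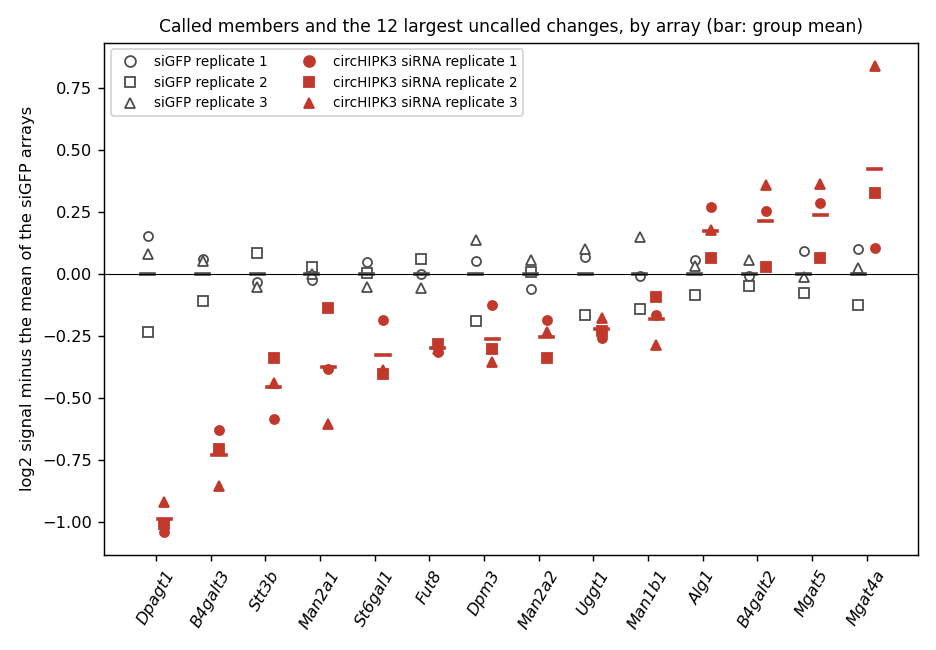
Log2 signal of each array minus the mean of the siGFP arrays (y axis) for the 2 called genes and the 12 uncalled genes with the largest changes (x axis), with a symbol per replicate and a bar at each group mean. The 3 circHIPK3 siRNA arrays of Dpagt1 and B4galt3 sit well below the siGFP arrays, while those of Man2a1 and Mgat4a are spread widely.

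Trimming in the ER removes glucose and the first mannose and lets the folding of a glycoprotein be tested. None of its 5 genes passed. Ganab and Prkcsh, the subunits of glucosidase II, changed by 0.14 ± 0.10 and 0.07 ± 0.12 (SE), with Prkcsh at 4.39, 4.26 and 4.63 on siGFP arrays and 4.48, 4.48 and 4.53 on circHIPK3 siRNA arrays. The change of Prkcsh was -0.03 under array median scaling. Uggt1, the sensor that returns glucose to misfolded glycoproteins, lay at 3.81, 3.57 and 3.84 against 3.48, 3.51 and 3.56. Its groups did not overlap, and the change was -0.22 ± 0.11 (SE, limma adjusted p = 0.279). The second Uggt1 probe also separated the groups, with a change of -0.28 ± 0.10 (SE). Man1b1, the ER mannosidase whose cut can mark a glycoprotein for degradation, gave 1.75, 1.62 and 1.90 against 1.59, 1.66 and 1.47, with overlapping groups and a change of -0.18 ± 0.11 (SE).

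The Golgi mannosidases act in sequence, Man1a and Man1a2 before the first GlcNAc branch and Man2a1 and Man2a2 after it. None of the 4 genes passed. Man1a changed by -0.10 ± 0.12 (SE), with overlapping groups, and by 0.12 with slide as a block. Man2a1 lay at -0.36, -0.30 and -0.33 on siGFP arrays and at -0.71, -0.47 and -0.94 on circHIPK3 siRNA arrays. The siGFP arrays were nearly equal and the treated ones spread over a wider range, all lower, with a change of -0.38 ± 0.13 (SE, limma adjusted p = 0.179). Man2a2 lay at -1.19, -1.12 and -1.07 against -1.31, -1.46 and -1.36, a change of -0.25 ± 0.10 (SE, limma adjusted p = 0.198). The changes of Man2a1 and Man2a2 differed by -0.12 ± 0.17 (SE), with a 95% interval of -0.60 to 0.36. Man1a2 gave -0.07, 0.04 and -0.07 against 0.14, 0.14 and -0.03, so its groups overlapped, and it changed by 0.12 ± 0.10 (SE).

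The GlcNAc branching genes were the group with the highest median, 0.01 relative to all genes, and none of the 5 passed. By array, their median lay at 0.06, -0.04 and -0.03 for circHIPK3 siRNA replicates 1 to 3 relative to all genes. On replicate 3 the ER trimming group lay higher, at -0.01. Mgat1 and Mgat2, which start the branches of every complex glycan, changed by -0.03 ± 0.10 and -0.10 ± 0.13 (SE). Mgat1 lay at 1.58, 1.48 and 1.66 on siGFP arrays against 1.48, 1.60 and 1.54, and its groups overlapped. Mgat4a, the branching enzyme tied to GLUT2 in mouse beta cells, had a faint signal of -5.40, -5.63 and -5.48 on siGFP arrays and -5.40, -5.18 and -4.66 on circHIPK3 siRNA arrays. The treated arrays were all above the highest control, by a margin that was small for replicate 1 and large for replicate 3. The change of 0.42 ± 0.19 (SE) did not pass (limma adjusted p = 0.250), and it was 0.22 under quantile normalization and 0.11 ± 0.22 (SE) with slide as a block. Its paralog Mgat4b changed by 0.10 ± 0.11 (SE), a difference of 0.33 ± 0.30 (SE) with a 95% interval of -0.49 to 1.15. Mgat5, which adds the branch that carries long lactosamine chains, gave -3.70, -3.87 and -3.80 against -3.50, -3.73 and -3.43, with overlapping groups and a change of 0.24 ± 0.11 (SE). Faint genes as a whole lay higher, as the 6445 genes with the lowest signal had a median change of 0.28.

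Capping with galactose, fucose and sialic acid had the lowest group median, -0.31 relative to all genes. By array, the median capping gene lay at -0.15, -0.22 and -0.46 for circHIPK3 siRNA replicates 1 to 3 relative to all genes. On replicate 2 the oligosaccharyltransferase and the Golgi mannosidases lay lower, at -0.31 and -0.25. Of the 6 capping genes, 1 was called lower and none higher. That gene was B4galt3, a galactosyltransferase of the Golgi. Its log2 signal was 1.52, 1.35 and 1.51 on siGFP arrays and 0.83, 0.75 and 0.60 on circHIPK3 siRNA arrays. The groups were well apart, with means of 1.46 ± 0.10 and 0.73 ± 0.12 (SD, n = 3) and a change of -0.73 ± 0.11 (SE, limma adjusted p = 0.0380), and the exact two-sided permutation p was 0.1. A second B4galt3 probe gave 0.86, 0.72 and 0.97 against 0.17, 0.44 and 0.14. It separated the groups in the same direction, by -0.60 ± 0.12 (SE, adjusted p = 0.0616 by limma across the 31380 kept probes). With slide as a block the change of B4galt3 was -0.63 ± 0.15 (SE) and did not pass (limma adjusted p = 0.215). Without siGFP replicate 1, 2 or 3, or without circHIPK3 siRNA replicate 2 or 3, it lay between -0.79 and -0.67, and the call was likewise lost (adjusted p from 0.0991 to 0.172).

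**Figure D3:**
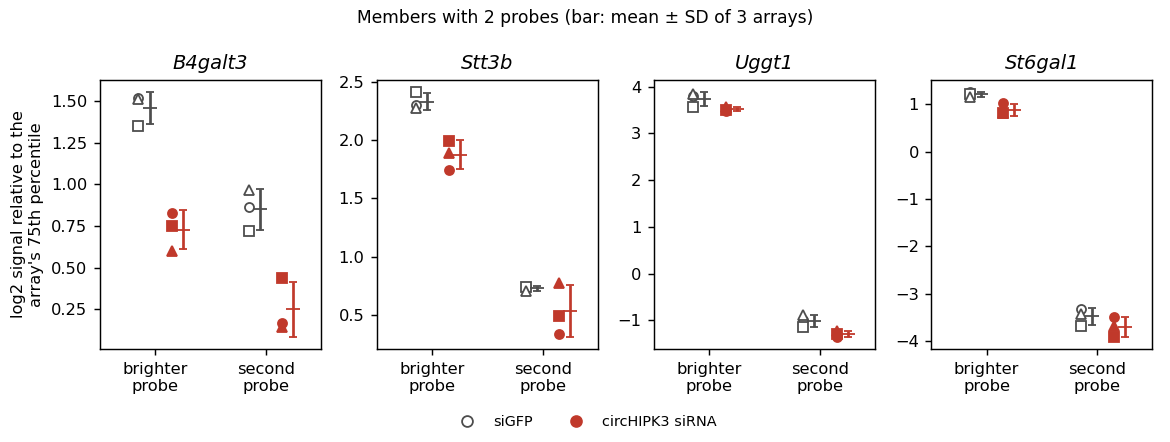
Log2 signal relative to the array's 75th percentile (y axis) for the brighter and the second probe of B4galt3, Stt3b, Uggt1 and St6gal1, with 1 symbol per array and bars for mean ± SD of 3 arrays. Both probes of B4galt3 and Uggt1 separate the groups, whereas the second probe of Stt3b has circHIPK3 siRNA replicate 3 at 0.77, above the siGFP arrays.

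The sequences before the start sites of B4galt3, Stt3b and Stt3a are shown because B4galt3 was called and Stt3b had the lowest change of the uncalled members, with Stt3a as its paralog. Such entries were matched by symbol for 39 of the 45 genes, and the 250 bases before the start are given 5′ to 3′ on the gene's strand (RefSeq, GRCm38.p6). Dpagt1, the other called gene, had no matched entry, so its promoter was not examined. They lie at chr1:171270078-171270327 on the plus strand for B4galt3, at chr9:115310469-115310718 on the minus strand for Stt3b and at chr9:36767623-36767872 on the minus strand for Stt3a. Capitals mark matches on either strand to TGACGTCA, the cAMP response element, to TGACGTG, the core of the unfolded protein response element, and to CCAAT and CCACG, the ends of the ER stress element. TGACGTCA and TGACGTG share their opening letters TGACGT, and CCAAT and CCACG are also parts of the full ER stress element.
B4galt3 promoter: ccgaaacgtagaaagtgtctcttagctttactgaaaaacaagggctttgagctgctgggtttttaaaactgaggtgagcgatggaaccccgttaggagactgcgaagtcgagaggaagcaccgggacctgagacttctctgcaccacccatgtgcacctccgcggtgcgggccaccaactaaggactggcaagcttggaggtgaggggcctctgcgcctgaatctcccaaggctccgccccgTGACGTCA
Stt3b promoter: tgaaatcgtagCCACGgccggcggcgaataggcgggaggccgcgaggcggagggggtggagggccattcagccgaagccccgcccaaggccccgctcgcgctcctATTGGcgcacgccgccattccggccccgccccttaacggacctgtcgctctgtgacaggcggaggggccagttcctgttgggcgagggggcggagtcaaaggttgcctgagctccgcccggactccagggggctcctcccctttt
Stt3a promoter: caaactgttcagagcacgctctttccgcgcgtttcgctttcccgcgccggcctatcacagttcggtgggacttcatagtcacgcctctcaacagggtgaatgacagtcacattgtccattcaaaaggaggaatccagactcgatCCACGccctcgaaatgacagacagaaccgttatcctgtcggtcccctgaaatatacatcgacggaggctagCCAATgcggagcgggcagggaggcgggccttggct
B4galt3 had 1 match, TGACGTCA in the last 8 bases before the start, and was the only one of the 39 genes with that motif, which was in 1.55% of the 32851 promoter windows of all genes. Both Stt3 windows held a CCAAT and a CCACG match, motifs found in 33.8% and 28.3% of all windows. Alg12 was the only member of the 39 with the full ER stress element, in which CCAAT and CCACG are separated by a fixed gap, found in 0.113% of all windows, and Dpm2 and Mogs held TGACGTG, found in 1.65%. These matches describe the letters and not sites of binding.

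The other galactosyltransferase genes did not pass. B4galt1 changed by -0.16 ± 0.13 (SE), and 1 treated array, replicate 3 at 0.11, lay apart from the other 5 at 0.50 to 0.55. B4galt2 had a faint signal of -4.70, -4.74 and -4.64 against -4.44, -4.67 and -4.33, with overlapping groups and a change of 0.21 ± 0.11 (SE). B4galt5, which chiefly galactosylates glucosylceramide, gave 1.25, 1.30 and 1.31 against 1.37, 1.43 and 1.24 and changed by 0.06 ± 0.10 (SE), or by -0.04 under array median scaling. Within arrays, the change of B4galt3 differed from that of B4galt1 by -0.57 ± 0.09 (SE), from that of B4galt2 by -0.94 ± 0.15 and from that of B4galt5 by -0.79 ± 0.08, with the groups apart each time. The pairs were chosen with these values known, so no test is attached.

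Fut8, which adds the core fucose, and St6gal1, which caps galactose with sialic acid, were both lower on every treated array without passing. Fut8 lay at -0.44, -0.38 and -0.50 on siGFP arrays and at -0.75, -0.72 and -0.74 on circHIPK3 siRNA arrays, close together within each group, with a change of -0.30 ± 0.09 (SE, limma adjusted p = 0.137). St6gal1 lay at 1.26, 1.21 and 1.16 against 1.02, 0.81 and 0.82, a change of -0.33 ± 0.10 (SE, limma adjusted p = 0.150) that was -0.19 ± 0.13 (SE) with slide as a block. Its second probe gave -0.22 ± 0.14 (SE) with overlapping groups.

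Most members had a high signal, and 5 lay below the median signal of all genes. All 59 probes were well above background on all 6 arrays, and 27 of the 45 genes were among the 6444 with the highest signal. In that range the median change was -0.07 for the members and -0.01 for all genes, and 6 members had groups apart with lower treated values, where the share over all genes of the range was 14.1%. In the next 6444 genes by signal, 13 members had a median of -0.04 against 0.02 for all genes. In total 14 members had a second probe, of which 10 changed in the same direction as the first and 0 passed over all kept probes. The second probes of B4galt1 and Dad1, faint at -3.44 to -2.76 and -5.51 to -4.75, changed by 0.28 ± 0.17 and 0.28 ± 0.16 (SE), opposite in sign to the first.

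**Figure D4:**
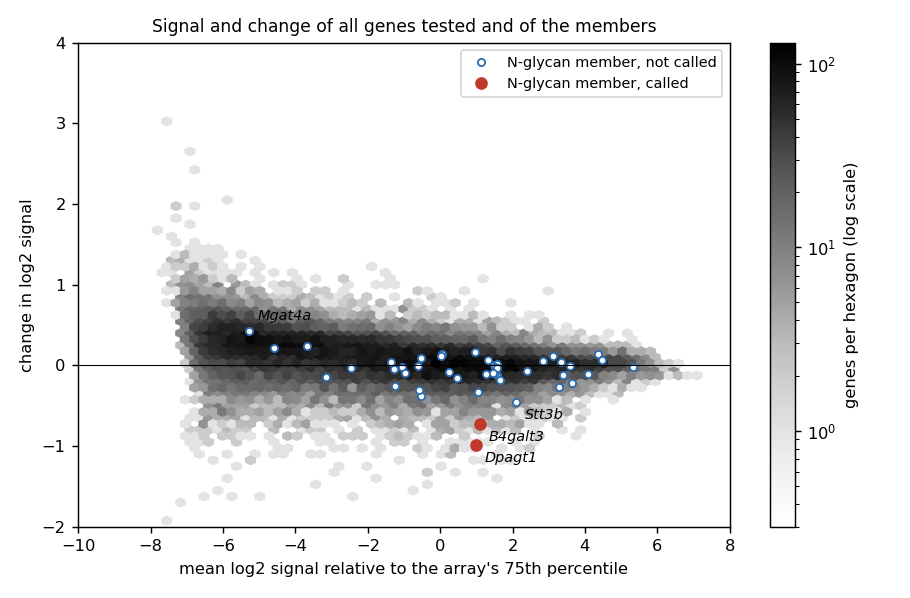
Mean log2 signal relative to the array's 75th percentile (x axis) against the change in log2 signal (y axis) for all 25777 genes, as grey hexagons shaded by the number of genes on a log scale, with the 45 members as circles. Most members lie at high signal near 0, Dpagt1 and B4galt3 lie below most genes of similar signal, and faint genes, Mgat4a among them, lie higher.

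Of 55 further genes of N-glycan synthesis, 51 were tested, and none passed in either direction by limma. At an unadjusted p under 0.05, 8 were lower and 1 higher, 17.6% of those tested against 21.1% of all genes. Their median change was -0.16 relative to all genes, and the groups were apart for 10 that were lower (19.6%, against 9.38% of all genes) and 4 that were higher (7.84%, against 16.6%). The 4 largest changes were those of Gnptab, Tmem258, St3gal4 and Uggt2. Gnptab, which makes the mannose phosphate mark of lysosomal enzymes, lay at 1.17, 0.94 and 1.30 on siGFP arrays and at 0.36, 0.30 and 0.56 on circHIPK3 siRNA arrays, a change of -0.73 ± 0.13 (SE, limma adjusted p = 0.0519). Tmem258, a small subunit of the oligosaccharyltransferase, gave 2.45, 2.10 and 2.29 against 1.80, 1.61 and 1.64, a change of -0.60 ± 0.12 (SE, limma adjusted p = 0.0630). The sialyltransferase gene St3gal4 gave -0.74, -1.02 and -0.93 against -1.24, -1.50 and -1.65, a change of -0.57 ± 0.14 (SE, limma adjusted p = 0.0918) that was -0.34 ± 0.16 (SE) with slide as a block. For these 3 genes every treated array lay below every control, as it did for Dpagt1 and B4galt3. Uggt2, the paralog of Uggt1, lay higher on every treated array, at -1.84, -1.56 and -1.28 against -2.02, -2.23 and -1.97, with a change of 0.51 ± 0.16 (SE, limma adjusted p = 0.144) that was 0.23 ± 0.18 (SE) with slide as a block. The subgroup of nucleotide sugar synthesis had 14 of 16 tested genes below the median of all genes, with a median of -0.26 relative to it and none called.

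The calls of Dpagt1 and B4galt3 were followed over 19 other settings. Both kept their direction in all 19, but many of these settings could not have turned it. For left-out arrays, array weights and the fixed slide block the direction follows from groups that do not overlap. The changed filters, trend and robust variance and the replicate block left the changes themselves at -0.99 and -0.73. Dpagt1 passed in 11 of them and B4galt3 in 10, with changes of -1.11 to -0.91 and -0.83 to -0.63. Stt3b passed in 1. No other member passed in any setting.

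**Figure D5:**
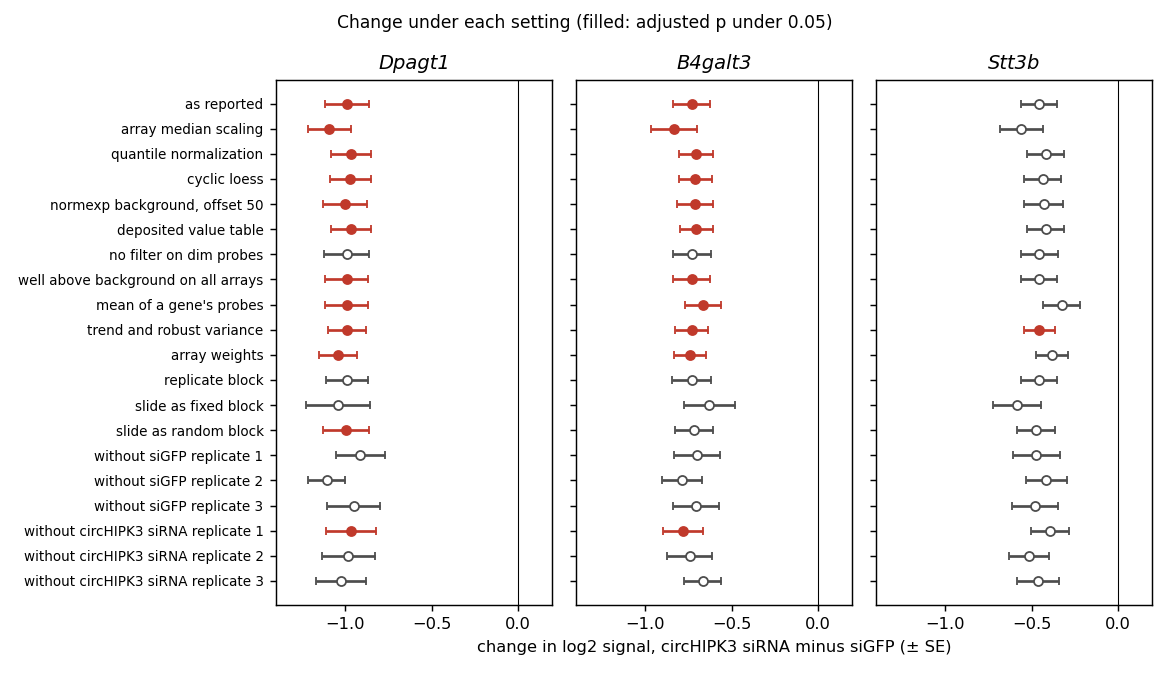
Change in log2 signal with its SE (x axis) of Dpagt1, B4galt3 and Stt3b as reported and under the 19 other settings (y axis), with filled points where the adjusted p was under 0.05. Over the other settings the change ran from -1.11 to -0.91 for Dpagt1, -0.83 to -0.63 for B4galt3 and -0.59 to -0.33 for Stt3b. Dpagt1 is called in 11, B4galt3 in 10 and Stt3b in 1 of them.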

How the data were processed

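Total RNA of MIN6B1 cells, 3 samples with circHIPK3 siRNA and 3 with siGFP, was labelled with Cy3 and hybridised to single-colour Agilent arrays (labels' protocols). Each deposited scanner file holds a background-subtracted intensity per spot, raw foreground and background intensity and quality flags, which came from Agilent Feature Extraction, version 11.0.1.1 in the submitters' processing notes and per the file headers. A deposited value table of 31868 probes holds log2 values whose column medians lie between 9.7965 and 9.7968, which correlate at 0.9999 with the log2 intensity of the same array. Its scale and direction are thereby known and genes were not centred, and its normalization is not given in the sources used here.

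The values were log2 intensity minus each array's 75th percentile over 43020 non-control spots. Outlier spots, by either of the scanner's flags for them, were dropped before averaging within probes, and 12 of 39429 probes then lacked an array's value. A probe needed to be well above background in all 3 samples of either group (31380 probes). RefSeq accessions (GRCm38.p6) named 27234 probes. The files name another build, so only promoter entries carry coordinates. The brightest kept probe stood for each gene. The test was limma (3.58.1, in R 4.3.3) with group as the only term, and the procedure was tested on simulated data. There it recovered 20.6% of 1.5-fold and 88.4% of 2-fold changes, with 6.15% of calls false. Changes of 1.5-fold were thus mostly missed, and a gene that did not pass is not shown to be unchanged. Figures used matplotlib 3.10.9 in Python 3.11.15. Values on every array are printed for called members, the 12 largest uncalled changes and the member with the highest signal in each role, with a few others chosen after their values were seen, among them Alg6, Stt3a and second probes, as were the single cell type markers given values. Of the other pathway genes the called ones and the 4 largest uncalled changes are named. Members and lists were chosen with earlier results of these data known.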

Additional observations from a re-analysis of the deposited data

How the results depend on the processing

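The alternatives were array median scaling, quantile normalization, cyclic loess, normexp, the deposited value table, a filter on dim probes that was absent or demanded all 6 arrays, the mean of a gene's probes, array weights, trend and robust variance, a block for replicate number or for slide, and leaving out single arrays. The count of 2 members called lower was 0 with no filter on dim probes, where more genes were tested, 0 with the replicate block, 0 with a fixed slide block and 1 with a random slide block. It was 0 to 2 on leaving out an array, 2 only without circHIPK3 siRNA replicate 1, which puts the groups on separate slides. No member was called higher anywhere. Over all genes, the 165 lower calls became 403 with array median scaling, 272 with cyclic loess, 427 with trend and robust variance, 594 with array weights, 79 with a random slide block, and 0 with no filter, the replicate block or a fixed slide block. The 138 higher calls became 42 with quantile normalization, 48 with cyclic loess, 38 with normexp, 34 with the value table, 78 with the stricter filter, 965 with array weights, 45 with a random slide block, and 0 with no filter, the replicate block or a fixed slide block. Leaving out an array gave 0 to 351 lower and 0 to 1386 higher calls. Lower calls were 0 in each of these fits except the one without circHIPK3 siRNA replicate 1. Of the other pathway genes, 2 were called lower with array median scaling, 1 with normexp, 2 with trend and robust variance, 4 with array weights and 0 to 3 on leaving out an array, where 0 to 1 were called higher. The members' median relative to all genes, -0.12, was -0.074 with quantile normalization, -0.068 with cyclic loess, -0.072 with the value table, -0.069 with a fixed slide block, -0.17 with array weights and -0.17 to -0.090 on leaving out an array. Causes of these shifts were not tested.

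The main fit did not pair same-numbered replicates of the groups, and whether they were prepared as pairs is not known. The correlations of their deviations from the group means were -0.02, 0.27 and -0.13. Differently numbered replicates gave -0.35 to 0.29, and so few arrays cannot settle the question. With the replicate block Dpagt1 had an adjusted p of 0.0856 and B4galt3 of 0.0917, and with no filter 0.0699 and 0.0825. The sign turned in at least 1 setting for 19 of the 45 members, none of them called in any setting. Of these, 5 are among the members picked for printing by call, size of change or highest signal in a role. The other 14 include B4galt1 at -0.16 (-0.26 to 0.06 over the settings), Man1a at -0.10 (-0.21 to 0.12), Mgat4b at 0.10 (-0.0061 to 0.29) and Stt3a at 0.05 (-0.12 to 0.21). Alg2 gave 0.0038 with quantile normalization, 0.0056 with cyclic loess, 0.0044 with normexp, 0.0035 with the value table, 0.22 with a fixed slide block, 0.018 with a random slide block, and from -0.13 to 0.088 on leaving out an array. Rpn2 gave 0.00084 with normexp and -0.078 to 0.041 on leaving out an array. Prkcsh gave -0.031 with array median scaling, -0.0024 with array weights and -0.011 to 0.17 on leaving out an array. Mgat1 gave 0.0036 with quantile normalization, 0.0038 with the value table and -0.082 to 0.010 on leaving out an array. B4galt5 gave -0.040 with array median scaling. Faint members such as Mgat4a and B4galt2 are limited by signal over background.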
